A study of Mus musculus with 18 samples.

Results

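The 10 genes described here encode secreted growth and trophic factors: Hbegf, Tgfa and Areg, which are ligands of the epidermal growth factor (EGF) receptor, Pdgfa, Pdgfb and Vegfa, which act on oligodendrocyte progenitors, pericytes and vessels, Igf1, the neurotrophin Bdnf, Grn and Gdf15. They were taken by symbol from the count table, which lists 53465 genes, and all 10 were found in it. All mice were female C57BL/6J, 8 to 10 weeks old, and had a contusion of the thoracic spinal cord. At 48 h after the contusion, PBS, 100 ng of recombinant IL-13 or 100 ng of recombinant IL-4 was injected into the lesion, and microglia and macrophages were sorted 24 h later. Both cell types came from each of 9 mice, 3 per injection (PBS in mice 1, 2 and 3, IL-13 in mice 5, 6 and 7, IL-4 in mice 8, 9 and 10), so that there were 18 libraries in 6 groups of 3. Every group thus shared the injury and the needle, and PBS was the control for both cytokines. The gates kept CD11b+ F4/80+ cells and told microglia (CD45 low) from macrophages (CD45 high) by CD45 alone.

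These factors reach their targets in different ways. Hbegf, Tgfa and Areg are made as membrane proteins, and proteases of the ADAM family release the active ligand, which binds the EGF receptor and drives proliferation and survival in glia and epithelia. PDGF chains pair to act on PDGF receptors, with Pdgfa best known in the spinal cord as a mitogen of oligodendrocyte progenitors and Pdgfb as the endothelial signal that holds pericytes on vessels. Vegfa is the main angiogenic ligand and a classical target of hypoxia. Igf1 supports neurons and oligodendrocytes and is made by activated myeloid cells, Bdnf signals through the receptor encoded by Ntrk2, Grn encodes progranulin, which is both secreted and needed in the lysosome, and Gdf15 is a stress-induced relative of TGF-beta. IL-4 and IL-13 signal through STAT6 and induce repair-associated genes in macrophages.

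Total counts were between 35961305 and 45849829 per library, and 3 counts, the limit below which a gene was treated as not detected, came to at most 0.101 CPM. Levels are given as CPM, counts relative to the library total after TMM scaling over the 18 libraries. They cover counting error and spread between mice, and in bulk samples fewer cells of a type cannot be told apart from less RNA per cell. After PBS, 8 of 8 microglia markers were higher in microglia and 8 of 8 monocyte and macrophage markers were lower there, by edgeR. Microglia markers were nevertheless found in every macrophage library, with a summed level of 2618 to 3736 CPM after PBS, 1064 to 2261 after IL-13 and 465 to 849 after IL-4. Microglia libraries also held fibroblast and pericyte markers (summed level 2500 to 3635 CPM after PBS, 1299 to 7921 after IL-13 and 247 to 1581 after IL-4) and endothelial markers (964 to 2061, 1676 to 3042 and 2171 to 2882 CPM). In the macrophage libraries the fibroblast and pericyte sum was at most 23.6 CPM. Of 13 tested genes on a list of IL-4 and IL-13 targets, 8 were higher with IL-4 and 6 with IL-13 in microglia, where 2.22% and 0.366% of all genes were called by edgeR in either direction. Of 14 tested in macrophages, 13 and 10 were higher, where 6.77% and 2.53% of all genes were called higher.

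Compared per kb of exon, Grn was the highest of the 10 genes in all 6 groups and Bdnf among the lowest. Grn had 655 ± 103 CPM per kb (SD, n = 3) in PBS microglia and 1180 ± 57.5 in PBS macrophages, above 99.8% of the genes with a known length in both. In PBS microglia, Tgfa (11.4 ± 2.63 CPM per kb) and Igf1 (9.15 ± 1.26) came next, with overlapping ranges, followed by Pdgfa (7.25 ± 0.743), Hbegf (3.12 ± 1.99), Pdgfb (2.41 ± 0.973) and Gdf15 (2.24 ± 1.17), of which the last 3 overlapped. Areg (0.402 ± 0.697), Vegfa (0.0746 ± 0.0649) and Bdnf (0.00493 ± 0.00854) overlapped at the bottom. In PBS macrophages the second place was held by Gdf15 (16.5 ± 2.46 CPM per kb). Pdgfa (5.16 ± 0.625), Areg (4.01 ± 1.92) and Igf1 (3.34 ± 0.561) followed with overlapping ranges, then Tgfa (1.17 ± 0.503), Vegfa (0.471 ± 0.161), Pdgfb (0.337 ± 0.00864) and Hbegf (0.198 ± 0.0429). The order in macrophages changed with the cytokine: after IL-4, Hbegf was second with 19.4 ± 17.2 CPM per kb, overlapping Igf1 (15.7 ± 7.53), followed by Gdf15 with 15.1 ± 5.13, and Tgfa was ninth with 0.0389 ± 0.0204.

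**Figure D1:**
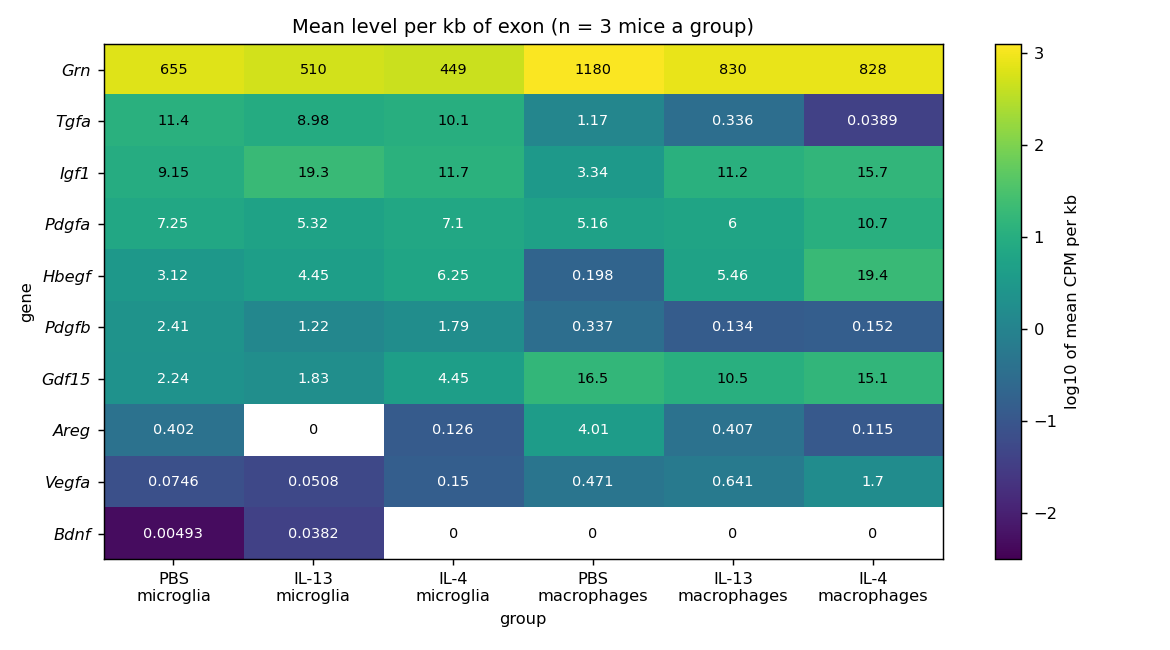
Mean CPM per kb of exon for each gene (rows) in the 6 groups (columns, n = 3 mice each), printed in each cell and coloured on a log10 scale, with white cells for groups in which no library had a count. Grn is the highest in every column, while Hbegf goes from 0.198 to 19.4 and Tgfa from 1.17 to 0.0389 between PBS and IL-4 macrophages.

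In macrophages, IL-4 moved the EGF receptor ligands in opposite directions: Hbegf rose, and Tgfa and Areg fell. Igf1 and Pdgfa also rose. With IL-4 against PBS, 5 of the 9 tested genes passed the threshold (adjusted p of 0.05), 3 higher and 2 lower, where 14% of the 13606 genes tested passed it, 6.77% higher and 7.2% lower. Bdnf was not tested there. With IL-13 against PBS, 1 of the 9 passed, Hbegf, which was higher, against a background of 4.19% in either direction and 2.53% higher. Between IL-4 and IL-13, 1 of the 9 passed, Tgfa, which was lower, against 0.25% in either direction and 0.22% lower. The comparisons with PBS share their PBS libraries. In microglia, edgeR called 0 of the 8 tested genes in the same comparisons, where it called 2.22%, 0.366% and 0.0385% of all genes, and DESeq2 called 1, Igf1 with IL-13 against PBS.

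Hbegf, the heparin-binding EGF-like ligand, had 0.792, 1.19 and 0.890 CPM in PBS macrophages of mice 1, 2 and 3. It had 11.4, 53.3 and 14.4 CPM in IL-13 macrophages of mice 5, 6 and 7, and 38.8, 189 and 52.6 CPM in IL-4 macrophages of mice 8, 9 and 10. Every cytokine library was above every PBS library, and 1 mouse in each cytokine group was well above the other two. The log2 fold change was 6.61 ± 0.85 (SE, adjusted p = 0.000905) with IL-4 and 4.79 ± 0.80 (adjusted p = 0.00906) with IL-13. The means were 97.8-fold and 27.6-fold above PBS. Between IL-4 and IL-13 the groups overlapped, and the log2 difference of 1.82 ± 0.66 did not pass (adjusted p = 0.336). The IL-13 call was lost without PBS mouse 1 (adjusted p = 0.0541) or PBS mouse 3 (0.0579), with log2 fold changes of 4.65 and 4.73. The IL-4 call held in all 13 alternatives run. In the macrophage libraries, 8 markers of endothelial cells, which also make Hbegf, summed to 40.1 to 52.3 CPM with PBS, 109 to 185 with IL-13 and 157 to 331 with IL-4. Pecam1 was the 1 marker of the 8 called higher with IL-4 (8.49 ± 1.31 CPM with PBS, 137 ± 40.6 with IL-13 and 222 ± 93.1 with IL-4). The defining marker Cldn5 was at 2.42 ± 0.879, 1.97 ± 0.373 and 0.874 ± 0.173 CPM in the same groups and was among the 4 markers that fell with IL-4 (-1.47 ± 0.38, adjusted p = 0.027). The part of endothelial RNA in the levels of Hbegf was not tested.

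Tgfa, transforming growth factor alpha, had 11.2, 4.85 and 6.67 CPM in PBS macrophages, 2.26, 2.99 and 1.31 in IL-13 macrophages and 0.238, 0.391 and 0.128 in IL-4 macrophages. The 3 groups did not overlap, and the order was PBS, IL-13, IL-4. The IL-4 libraries held only 10, 15 and 5 counts of the gene. The log2 fold change was -4.89 ± 0.53 with IL-4 (adjusted p = 0.000336), -1.79 ± 0.44 with IL-13 (adjusted p = 0.0506) and -3.10 ± 0.51 between IL-4 and IL-13 (adjusted p = 0.0451). The fall with IL-4 held in all 12 alternatives that kept the gene. The difference between the cytokines was called in 1 of the 6 fits that left out a library, with adjusted p between 0.0491 and 0.177. With IL-13, the fall was called in 6 of the 12 alternatives that kept the gene, among them 1 of the 6 fits that left out a library. DESeq2's Wald test, run without the filter on low counts, was another of them (adjusted p = 0.00122).

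Tgfa is far more abundant in microglia, and the microglia markers of the macrophage libraries fell as well. All 8 of those markers were lower with IL-4 against PBS in macrophages, with a median log2 fold change of -3.73 where the median of all genes was 0.02, and 2 of the 8 were lower with IL-13. In sorted microglia the same markers had a median log2 fold change of -1.49 with IL-4, 2 of the 8 were called lower, and the mean of their sum went from 8017 CPM with PBS to 3080 with IL-4. In macrophages, Tmem119, a marker of resident microglia, changed by -3.71 ± 0.24 on the log2 scale with IL-4 and Sall1, a microglial transcription factor, by -4.14 ± 0.54. Expressed as a share of the level in microglia given the same injection, Tgfa in macrophages was at 10.2% with PBS, 3.75% with IL-13 and 0.385% with IL-4. The marker sum was at 41.9%, 33.7% and 21.8%, and the lowest single marker with IL-4, Siglech, was at 2.26%. None of the 8 markers was at 0 in any group. The part of microglial RNA in the fall of Tgfa was not tested.

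**Figure D2:**
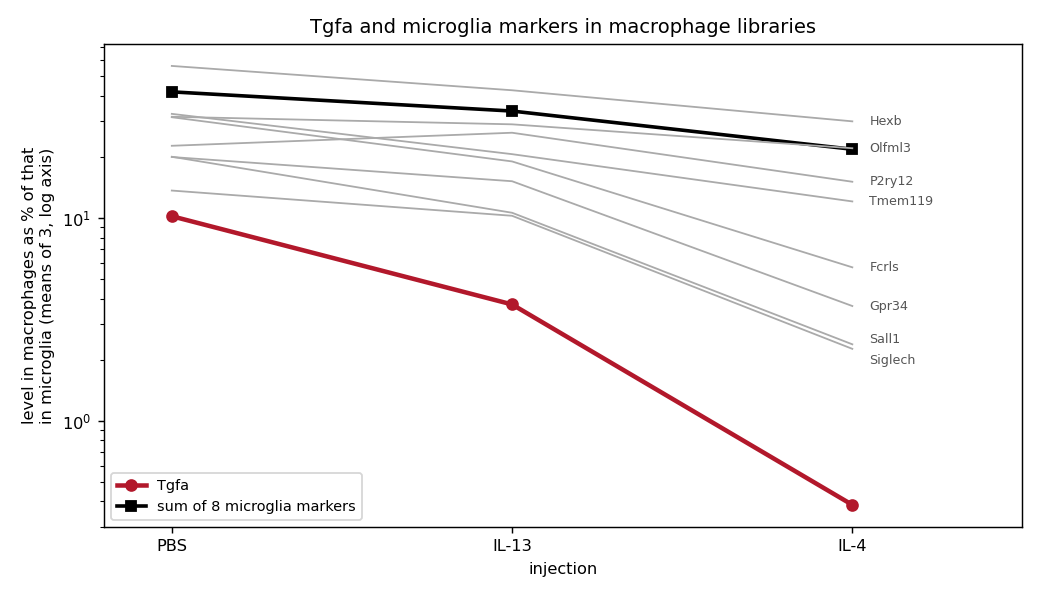
Mean level in macrophages as a percentage of that in microglia (log axis, means of 3 mice) for each injection, with Tgfa in red, the sum of 8 microglia markers in black and the single markers in grey. Tgfa lies below every marker, at 10.2% with PBS and 0.385% with IL-4, while the marker sum goes from 41.9% to 21.8%.

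Areg, which encodes amphiregulin, had 3.34, 7.56 and 3.72 CPM in PBS macrophages (118, 248 and 134 counts). IL-13 macrophages had 0, 1.26 and 0.222 CPM, and IL-4 macrophages 0.238, 0.130 and 0.0512 CPM, or 10, 5 and 2 counts. No cytokine library reached the lowest PBS library. The log2 fold change was -5.07 ± 1.08 with IL-4 (adjusted p = 0.0121) and -3.28 ± 0.96 with IL-13 (adjusted p = 0.0956), fitted values that rest on these few counts and are no exact folds. The IL-4 call was lost without IL-4 mouse 10 (adjusted p = 0.0548) and when microglia were fitted together with macrophages (0.218). Without IL-13 mouse 6, which leaves libraries of 0 and 8 counts, the IL-13 adjusted p was 0.0134. PBS mouse 2 and IL-13 mouse 6, which had the most Areg in their groups, also had the highest sum of 8 neutrophil markers, at 1398 CPM against 740 and 806 in the other PBS macrophages, and 2953 against 473 and 414 in the other IL-13 macrophages. With IL-4 the sums were 170, 748 and 374 CPM in mice 8, 9 and 10, whose order was not that of Areg. The sort kept F4/80+ cells, a gate meant to leave out neutrophils, and the part of such cells in the levels of Areg was not tested. In microglia, Areg was near the detection limit, with 68 counts in PBS mouse 2, 14 and 7 counts in IL-4 mice 9 and 10, and 0 in the other 6 libraries.

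Since Tgfa and Areg both fell, the 250 bases before their start sites are shown, from the RefSeq promoter table of GRCm38.p6, read 5′ to 3′ on the gene's strand. Capitals mark the only match to the searched motifs, a cyclic AMP response element (TGACGTCA) 61 bases before the Areg start, which was added to the search after the sequence had been read.
Areg, chr5:91139349-91139598, plus strand: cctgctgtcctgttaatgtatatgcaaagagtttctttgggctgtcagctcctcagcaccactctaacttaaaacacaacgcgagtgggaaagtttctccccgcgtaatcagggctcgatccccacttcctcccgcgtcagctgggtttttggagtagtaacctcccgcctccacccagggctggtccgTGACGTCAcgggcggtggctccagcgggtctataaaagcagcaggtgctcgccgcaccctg
Tgfa, chr6:86194972-86195221, plus strand: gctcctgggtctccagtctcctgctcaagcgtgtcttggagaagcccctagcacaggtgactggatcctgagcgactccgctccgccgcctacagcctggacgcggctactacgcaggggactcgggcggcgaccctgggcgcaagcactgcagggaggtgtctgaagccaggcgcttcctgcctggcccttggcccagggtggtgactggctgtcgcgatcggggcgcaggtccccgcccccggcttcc

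Of 32851 promoter windows of 300 bases, 250 before and 50 after the start, 1.79% held TGACGTCA on either strand. The STAT6 motif, TTC and GAA with any 4 bases between them, was in 6.95% of them, the hypoxia core ACGTG in 19.6%, an AP-1 motif (TGACTCA or TGAGTCA) in 5.20% and TGATGNAA, read by ATF4 and C/EBP factors, in 3.97%. For 8 of the 10 genes the table held 17 windows, some of which lie inside the gene: all 250 upstream bases of the Igf1 window, 192 of those of Grn, and 218 and 196 of those of 1 window each of Vegfa and Gdf15 are exon in the annotation. None of the windows of Tgfa, Areg, Igf1, Pdgfa, Grn, Gdf15 or Vegfa held the STAT6 motif, and 1 of the 7 Bdnf windows did. ACGTG was in 2 windows of Bdnf and in those mostly exonic windows of Vegfa and Gdf15. TGATGNAA was in 1 Bdnf window, and no window held an AP-1 motif. These are matches of letters in short windows and say nothing of binding.

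Igf1, insulin-like growth factor 1, had 38.9, 27.8 and 32.5 CPM in PBS macrophages, 179, 26.9 and 127 CPM in IL-13 macrophages and 227, 78.6 and 162 CPM in IL-4 macrophages. All IL-4 libraries were above all PBS libraries, whereas IL-13 mouse 6 was below them. The means were 4.71-fold higher with IL-4 and 3.35-fold higher with IL-13. The log2 fold change was 2.24 ± 0.59 with IL-4 (adjusted p = 0.0293) and 1.76 ± 0.58 with IL-13 (adjusted p = 0.135). The IL-4 call was lost without PBS mouse 1, 2 or 3 or IL-4 mouse 8 or 10, with adjusted p of 0.0778, 0.103, 0.098, 0.0823 and 0.0745, and held without IL-4 mouse 9 (0.0213). Without IL-13 mouse 6, the IL-13 value was 2.22 with adjusted p = 0.00935.

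Pdgfa, the A chain of platelet-derived growth factor, had 15.2, 18.3 and 14.8 CPM in PBS macrophages, 20.1, 19.3 and 16.7 in IL-13 macrophages and 31.6, 30.4 and 37.9 in IL-4 macrophages. The IL-4 group lay above both others without overlap. The change with IL-4 was the smallest of the 5 calls (log2 fold change 1.05 ± 0.15, adjusted p = 0.00166), and it held in all 13 alternatives. With IL-13 it was 0.22 ± 0.15 (adjusted p = 0.5). Between IL-4 and IL-13 it was 0.82 ± 0.15 (adjusted p = 0.0573), and DESeq2 called this difference (adjusted p = 0.000529). An antisense gene, 6330403L08Rik, overlaps an exon of Pdgfa, and without strand information their reads cannot be told apart.

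Pdgfb, the B chain, had 1.44, 1.37 and 1.39 CPM in PBS macrophages, 0.640, 0.703 and 0.334 with IL-13 and 0.832, 0.626 and 0.435 with IL-4. Both cytokine groups lay below PBS. Neither fall passed the threshold, with log2 fold changes of -1.14 ± 0.46 (adjusted p = 0.130) for IL-4 and -1.32 ± 0.46 (adjusted p = 0.161) for IL-13. Vegfa had 2.77, 1.86 and 1.42 CPM with PBS, 2.80, 2.14 and 3.31 with IL-13 and 11.2, 1.33 and 9.40 with IL-4. IL-4 mouse 9 was thus below every PBS library while mice 8 and 10 were above them all. The log2 fold change of 1.86 ± 0.62 missed the threshold (adjusted p = 0.0753), was called by DESeq2 (0.0106) and was 2.34 without mouse 9 (0.00245).

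Grn and Gdf15 did not pass the threshold in macrophages. Grn had 4037, 3938 and 4323 CPM with PBS, 3459, 1916 and 3275 with IL-13 and 3544, 2102 and 2986 with IL-4. All 6 cytokine libraries were below the 3 PBS libraries, and the log2 fold changes were -0.51 ± 0.25 (IL-4, adjusted p = 0.225) and -0.50 ± 0.25 (IL-13, adjusted p = 0.351). Gdf15 had 33.6, 25.3 and 32.8 CPM with PBS, 31.3, 8.46 and 18.7 with IL-13 and 36.1, 17.6 and 30.3 with IL-4, and the groups overlapped. Its log2 fold changes were -0.12 ± 0.41 (adjusted p = 0.883) and -0.64 ± 0.41 (adjusted p = 0.469). Bdnf had 0 counts in all 9 macrophage libraries. Over all 9 tested genes, 7 did not overlap between IL-4 and PBS macrophages, where 34.7% of all genes did not, and 5 between IL-13 and PBS, where 24.5% did not. Between IL-4 and IL-13 it was 2, Pdgfa and Tgfa, where 14.4% did not. The median log2 fold change of the 9 genes was -0.12 with IL-4 and -0.50 with IL-13, beside 0.02 and 0.00 over all genes tested.

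**Figure D3:**
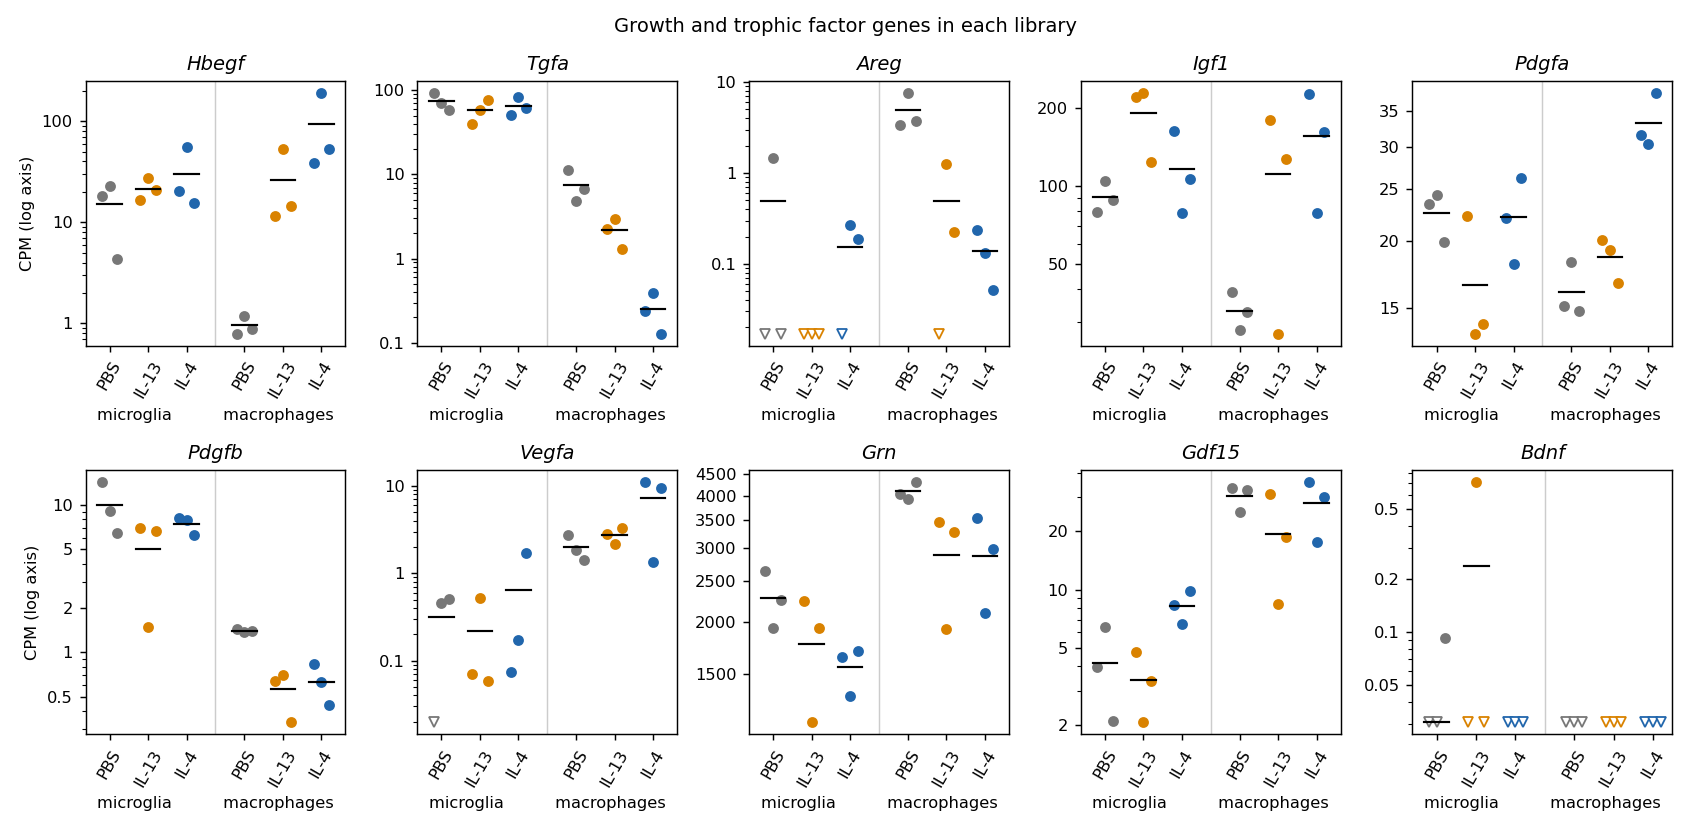
CPM of each gene in every library (log axis, 1 point per mouse), with microglia to the left and macrophages to the right of the grey line, bars at the group means and open triangles at the bottom for libraries with 0 counts. Hbegf rises and Tgfa and Areg fall from PBS to IL-4 in macrophages, while the microglia groups of Tgfa lie between 39.5 and 92.8 CPM.

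Within each cytokine group of macrophages, 1 mouse stood apart in several of these genes at once. IL-13 mouse 6 and IL-4 mouse 9 had the most Hbegf of their groups and the least Igf1, Grn and Gdf15. Mouse 9 also had the least Vegfa and Pdgfa of the IL-4 group. The same libraries had the highest neutrophil marker sums of their groups, the lowest microglia marker sums (1064 and 465 CPM) and the highest astrocyte marker sums, at 408 and 511 CPM against 66.1 to 182 in the other 4 cytokine libraries. Their endothelial marker sums were also the highest of their groups (185 CPM against 109 and 147 with IL-13, and 331 against 157 and 203 with IL-4), and their monocyte and macrophage marker sums the lowest (4766 and 5499 CPM). By group means, most of the endothelial sum was Pecam1 with either cytokine, and Cldn5 was among the markers that fell with IL-4. Most of the astrocyte sum was Gja1, which encodes a gap junction protein and had 391 and 491 CPM as the maximum of the IL-13 and IL-4 groups, whereas Gfap was at 2.82 ± 0.321 and 2.36 ± 0.781 CPM. The part of other cell types in these differences between mice was not tested. With both mice left out, an alternative added after the data had been seen, Hbegf still passed with IL-4 (log2 fold change 5.58, adjusted p = 6.44e-07) and with IL-13 (3.77, 1.44e-05). Igf1 then passed with both cytokines, at 2.56 (7.13e-05) and 2.22 (0.000325), and so did Tgfa and Areg, whereas Vegfa passed with IL-4 only (2.35, 0.000684). These libraries lie at the extremes of the same genes, so that leaving them out also removes spread.

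**Figure D4:**
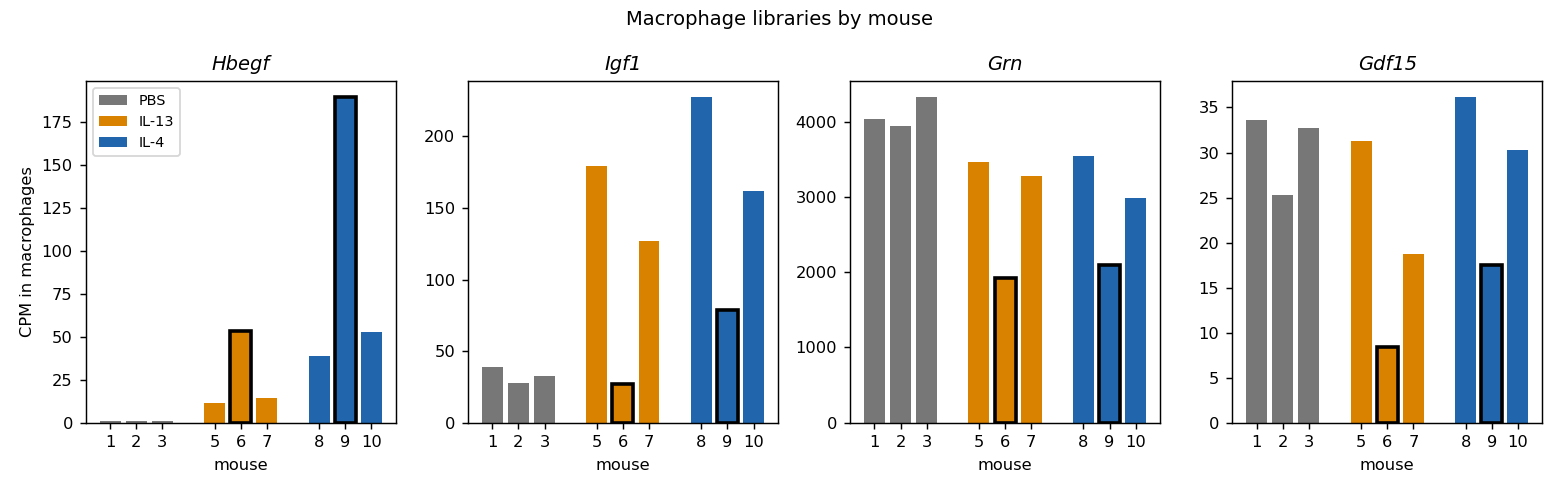
CPM of Hbegf, Igf1, Grn and Gdf15 in the macrophage libraries, 1 bar per mouse, coloured by injection and with mice 6 and 9 outlined. The outlined mice have the highest Hbegf bars of their groups (53.3 and 189 CPM) and the lowest bars of the other 3 genes.

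In microglia, edgeR called none of these genes with either cytokine, and DESeq2 called 1 with IL-13. With edgeR, 0 of the 8 tested genes passed with IL-4 against PBS, where 2.22% of 15566 genes did, 0 with IL-13 against PBS (background 0.366%) and 0 between IL-4 and IL-13 (0.0385%). At an unadjusted p under 0.05 the numbers were 0, 1 and 2, beside 2553, 1208 and 1773 of all 15566 genes. DESeq2 called 0, 1 and 0, beside 1479, 404 and 743 of 23364 genes. Areg and Bdnf were not tested. The median log2 fold changes of the 8 genes were 0.19, -0.35 and 0.47 in these comparisons, beside -0.06, 0.00 and -0.02 over all genes.

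Igf1 was the gene that DESeq2 called in microglia. It had 79.6, 104 and 88.1 CPM with PBS, 220, 229 and 124 with IL-13 and 164, 78.7 and 106 with IL-4. The IL-13 libraries were all above the PBS libraries, and the IL-4 libraries overlapped them. The log2 fold change with IL-13 was 1.08 ± 0.30 (edgeR adjusted p = 0.332, DESeq2 adjusted p = 0.0422). IL-13 mouse 6, with the most Igf1, had a fibroblast and pericyte marker sum of 7921 CPM, whereas mouse 5 with nearly as much Igf1 had 1855, and without mouse 6 the log2 fold change was 0.93. The part of those cells was not tested.

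Tgfa in microglia had 92.8, 70.5 and 59.2 CPM with PBS, 39.5, 57.7 and 77.6 with IL-13 and 51.5, 83.7 and 61.5 with IL-4, and all groups overlapped. Its log2 fold change with IL-4 was -0.15 ± 0.29 (adjusted p = 0.897). Hbegf had 18.1, 22.8 and 4.34 CPM with PBS, 16.7, 27.1 and 20.8 with IL-13 and 20.3, 55.0 and 15.4 with IL-4. IL-4 mouse 9 was again the highest, and the log2 fold change with IL-4 was 1.04 ± 0.62 (adjusted p = 0.480). Gdf15 had 3.96, 6.41 and 2.09 CPM with PBS, 4.75, 2.05 and 3.37 with IL-13 and 8.31, 6.60 and 9.81 with IL-4. All IL-4 libraries were above the others, at 1.01 ± 0.57 against PBS (adjusted p = 0.444) and 1.29 ± 0.58 against IL-13 (adjusted p = 0.439). Grn had 2647, 1930 and 2252 CPM with PBS, 2242, 1148 and 1927 with IL-13 and 1646, 1326 and 1704 with IL-4. The IL-4 libraries lay below the PBS libraries, with a log2 fold change of -0.52 ± 0.24 and an adjusted p of 0.325. Gdf15 and Grn were thus the 2 genes of the 8 whose IL-4 and PBS groups did not overlap, where 25.9% of all genes did not. With IL-13, Igf1 was the 1 such gene, where 16% of all genes did not overlap. Between IL-4 and IL-13 it was 1 gene, Gdf15, where 12.3% of all genes did not overlap. The share of counts from 13 mitochondrial genes was 8.86 ± 3.00% in IL-4 microglia, 3.40 ± 0.126% with IL-13 and 2.56 ± 0.417% with PBS. In macrophages it was 1.08 ± 0.300% with IL-4, 0.644 ± 0.0597% with IL-13 and 0.619 ± 0.112% with PBS, and the IL-4 libraries (0.836 to 1.41%) lay above the PBS libraries (0.532 to 0.745%) there too. The part of these shares in the values of either cell type was not tested.

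Pdgfa, Pdgfb and Vegfa showed overlapping groups in microglia with either cytokine against PBS. Pdgfa lay between 13.4 and 26.3 CPM over the 9 libraries. Pdgfb lay between 6.28 and 14.4 CPM in 8 of them and was at 1.49 CPM in IL-13 mouse 6. Vegfa was at or near the detection limit, from 0 to 1.69 CPM, with 62 counts in IL-4 mouse 10. Bdnf, which microglia are known for in models of pain, had 4 counts in PBS mouse 3, 34 counts in IL-13 mouse 6 and 0 in the other 7 microglia libraries. That library of mouse 6 had the highest fibroblast and pericyte marker sum of all microglia libraries (7921 CPM), and the part of such cells was not tested. For a library with 0 counts, 3 counts allow at most 0.0815 CPM in microglia.

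**Figure D5:**
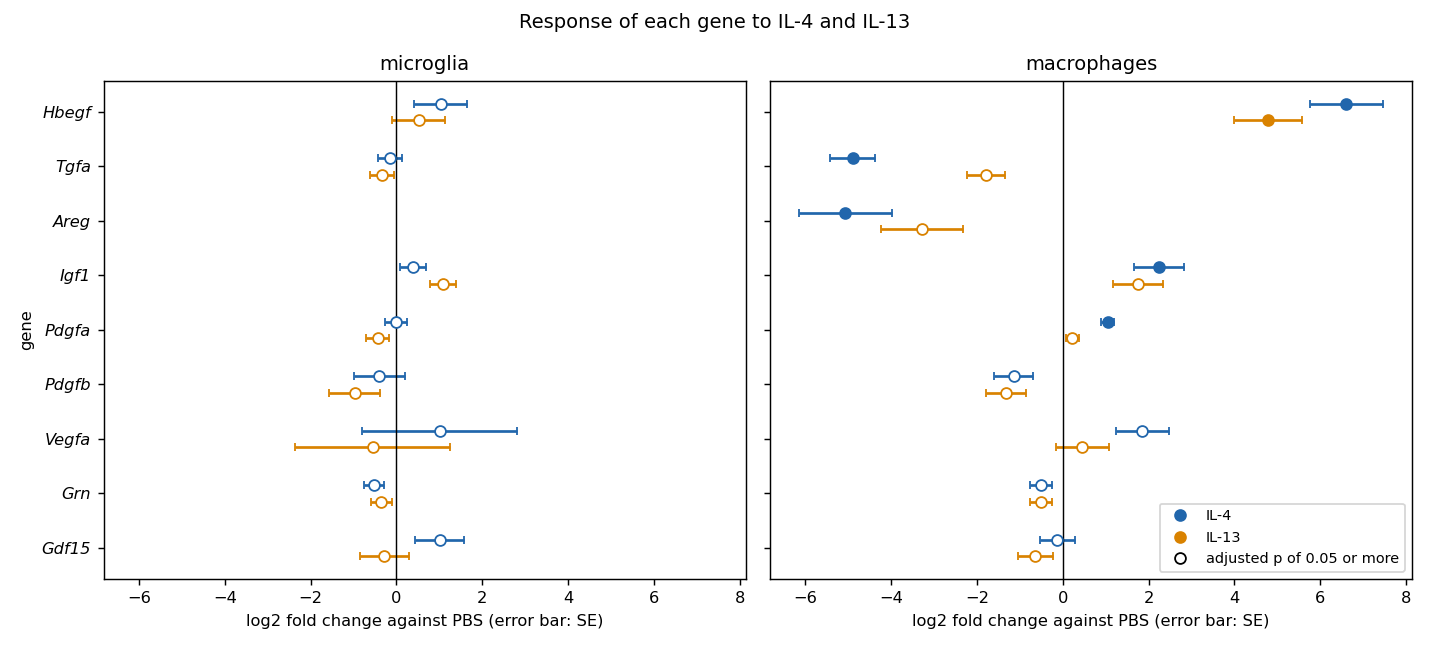
Log2 fold changes against PBS (points) with their SE (bars) for IL-4 in blue and IL-13 in orange, in microglia (left) and macrophages (right), with filled points for an adjusted p under 0.05 by edgeR. The 6 filled points are all in macrophages, at 6.61 and 4.79 for Hbegf, -4.89 for Tgfa, -5.07 for Areg, 2.24 for Igf1 and 1.05 for Pdgfa.

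The difference between the cell types in the response was tested directly, as an interaction over all 18 libraries. For IL-4, 2 of the 9 tested genes passed, where 0.992% of 16535 genes did, 0.49% higher and 0.502% lower. The response of Hbegf was lower in microglia than in macrophages by 5.61 ± 1.08 on the log2 scale (difference -5.61, adjusted p = 0.0231), and that of Tgfa was higher by 4.72 ± 0.58 (adjusted p = 0.00127). The Tgfa difference passed in all 17 alternatives that kept the gene. That of Hbegf was lost without PBS macrophages of mouse 1 or 3, PBS microglia of mouse 1 or 2, or IL-4 macrophages of mouse 9, with adjusted p between 0.0517 and 0.0797. Cell type markers moved in the same test. Fcrls was the 1 of 8 microglia markers called (2.46 ± 0.51, adjusted p = 0.0315), and their median was 1.94. Of 8 endothelial markers, 4 were called, Pecam1 lower (-3.70 ± 0.48, 0.00185) and Cldn5, Tek and Ly6c1 higher, and the median was 2.35. The part of such RNA in the differences of Hbegf and Tgfa was not tested. Igf1 (-1.88 ± 0.71, adjusted p = 0.262) and Pdgfa (-1.08 ± 0.30, adjusted p = 0.122) did not pass by edgeR, and DESeq2 called Pdgfa (adjusted p = 0.0124). For IL-13, 0 of the 9 passed with edgeR, where 0.0242% of all genes did, 3 had an unadjusted p under 0.05, as did 964 of 16535 genes, and DESeq2 called 1, Hbegf, among 183 of 25957 genes. The Hbegf difference for IL-13 was -4.27 ± 1.06, with adjusted p = 0.336 by edgeR and 0.00355 by DESeq2.

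Without a cytokine, the cell types differed in most of these genes. After PBS, 6 of the 9 tested genes passed between microglia and macrophages, where 40.9% of all genes did, 24.5% higher in microglia and 16.3% lower. Tgfa, Igf1, Pdgfb and Hbegf were higher in microglia and Gdf15 and Grn were lower. The log2 differences, microglia minus macrophages, were 3.25 ± 0.33 for Tgfa (adjusted p = 0.000115), 1.42 ± 0.18 for Igf1 (0.000341), 2.80 ± 0.38 for Pdgfb (0.000483) and 3.94 ± 0.60 for Hbegf (0.000935). For Gdf15 the value was -2.91 ± 0.38 (0.000403) and for Grn -0.88 ± 0.14 (0.00103). All 6 calls held in each of the 12 alternatives. All 9 genes had groups that did not overlap, where 54% of all genes did not. With mouse as a block, Areg passed as well (adjusted p = 0.0189), with 0, 68 and 0 counts in PBS microglia, so that no exact fold is given.

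Pdgfb, the pericyte-recruiting chain made by endothelium, was higher in the microglia libraries after each injection, and Hbegf after PBS only. Endothelial markers in the microglia libraries were far above the macrophage libraries (8 of 8 called higher after each injection, with Cldn5 at 511 ± 227 CPM in PBS microglia and 2.42 ± 0.879 in PBS macrophages). Fibroblast and pericyte markers were also 8 of 8 higher there. Their part in the differences of Pdgfb, Hbegf, Igf1 and Tgfa was not tested.

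With IL-13, 4 of the 8 tested genes passed between the cell types (background 26.7%, with 17.2% higher and 9.46% lower), Tgfa (4.76 ± 0.41, adjusted p = 0.000428) and Pdgfb (3.19 ± 0.76, 0.0187) higher in microglia and Gdf15 (-2.51 ± 0.55, 0.0132) and Vegfa (0.0366) lower. Vegfa had 3, 25 and 3 counts in IL-13 microglia and 83, 73 and 119 in IL-13 macrophages, so that no exact fold is given. Only Tgfa of these held in every alternative. With mouse as a block, Pdgfb (adjusted p = 0.0633) and Vegfa (0.0562) were lost and Grn was called (-0.69, 0.00834). Leaving out IL-13 macrophages of mouse 5 or 7 left 1 call, and IL-13 macrophages of mouse 6 or microglia of mouse 7 left 2. The calls over all genes went from 3710 of 13906 to 2380 of 14996 (macrophages of mouse 5), 2132 of 14914 (mouse 7), 2740 of 14853 (mouse 6) and 3378 of 14449 (microglia of mouse 7). Gdf15 was lost without the macrophages of mouse 5 (0.0611) or 7 (0.0503). Pdgfb was lost without any 1 of the 3 macrophage libraries or the microglia of mouse 7 (0.0559 to 0.0929), and Vegfa in 5 of the 6 fits that left out a library (0.0702 to 0.144). The groups of 4 genes did not overlap after IL-13, where 45.3% of all genes did not.

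With IL-4, 4 of the 8 passed (background 23.4%, with 13.4% higher and 9.97% lower). Tgfa was 8.03 ± 0.44 higher in microglia on the log2 scale (adjusted p = 4.38e-05) and Pdgfb 3.58 ± 0.54 (0.00309), whereas Gdf15 (-1.74 ± 0.33, 0.00842) and Grn (-0.86 ± 0.22, 0.0283) were lower. Mean Tgfa was 260-fold higher in IL-4 microglia (65.6 ± 16.5 CPM) than in IL-4 macrophages (0.252 ± 0.132 CPM), compared with 9.80-fold after PBS. Grn was lost without the macrophages of mouse 8 or 10 or the microglia of mouse 8 or 9 (adjusted p of 0.0534 to 0.101). Hbegf, 3.94 higher in microglia after PBS, was at -1.60 ± 0.70 after IL-4 (adjusted p = 0.155), and -1.47 with mouse as a block (adjusted p = 0.00796). Igf1, higher in microglia after PBS, was at -0.40 ± 0.41 after IL-4 (adjusted p = 0.56). After IL-4, 5 of the 8 did not overlap, where 41.5% of all genes did not.

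Of 26 related ligands present in the table, 14 were tested in macrophages and 7 passed with IL-4, 5 higher and 2 lower, with a median log2 fold change of 0.15, where 14% of all genes passed (6.77% higher and 7.2% lower). Pdgfc, another PDGF chain, went from 1.05 ± 0.244 CPM with PBS to 9.26 ± 1.48 with IL-13 and 11.3 ± 2.17 with IL-4, and rose by 3.15 ± 0.26 and 3.43 ± 0.26 on the log2 scale (adjusted p = 0.000141 and 4.29e-05). Pgf, placental growth factor, which like Vegfa binds the receptor encoded by Flt1, rose by 5.15 ± 1.06 with IL-4 (adjusted p = 0.0102), from 0.300 ± 0.0833 to 10.8 ± 13.1 CPM. The IL-4 libraries ranged from 2.45 to 26.0 CPM, and the PBS libraries from 0.250 to 0.397. Manf rose by 0.83 ± 0.18 (0.0154). Vegfd rose as well (0.0166), from 0 to 5 counts per library with PBS to 26 to 93 with IL-4, too few in PBS for an exact fold. With IL-13, where 4.19% of all genes passed, 2 were higher, Pdgfc and the ERBB ligand Nrg1 (2.76 ± 0.65, 0.0426), and 1 was lower, Lif (-2.20 ± 0.33, 0.00596). In microglia, 21 were tested and edgeR called 0 with IL-4, where 2.22% of all genes were called, and 0 with IL-13 (background 0.366%). At an unadjusted p under 0.05 the numbers were 5 and 0, and DESeq2, run without the filter on low counts, called 3 and 0 genes of the list. The response to IL-4 differed between the cell types for 1 of 23, Pgf (-5.58 ± 1.15, adjusted p = 0.0307), where 0.992% of all genes were called.

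Among receptors and co-receptors, 11 were tested in macrophages, and 1 rose and 5 fell with IL-4, with a median of -0.37, beside 14% of all genes called. Flt1, a receptor for Vegfa and Pgf, rose by 3.34 ± 0.41 (adjusted p = 0.000617), from 6.38 ± 3.05 to 64.7 ± 29.9 CPM. The co-receptors Nrp2 (-0.997 ± 0.146, 0.00176) and Nrp1 (-1.30 ± 0.20, 0.0025) fell. Pdgfra fell too (adjusted p = 0.00917), from 15 to 48 counts per library with PBS to 0 to 3 with IL-4, at or under the detection limit, so that no exact fold is given. Of 7 fibroblast and pericyte markers tested in the same comparison, 3 fell as well, and their sum went from a mean of 15.8 CPM with PBS to 3.79 with IL-4. The part of such RNA in the fall of Pdgfra was not tested. With IL-13 (background 4.19%), Flt1 rose (2.22 ± 0.39, 0.011) and Kdr, the main VEGF receptor of endothelium, fell (-2.31 ± 0.49, 0.0299). Egfr, the receptor of Hbegf, Tgfa and Areg, had 0 counts in all PBS macrophages and a mean of at most 0.0649 CPM in the cytokine groups. In microglia libraries it was between 0 and 47.8 CPM, and highest in IL-13 mouse 6, whose fibroblast and pericyte marker sum was 7921 CPM. The part of such cells in these levels was not tested. Of 17 receptors tested in microglia, 1 passed with IL-4, where 2.22% of all genes did, Ntrk2, the receptor of Bdnf (-2.09 ± 0.44, 0.0444). The 8 fibroblast and pericyte markers had a median of -1.75 there, and 1 was called, Rgs5 (-2.31 ± 0.46, 0.0367). Their mean sum in microglia went from 2954 CPM with PBS to 917 with IL-4, and the part of such RNA in the fall of Ntrk2 was not tested.

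Of the genes for binding proteins and processing, 11 were tested in macrophages, 1 rose and 3 fell with IL-4 (background 14%), and 1 rose and 1 fell with IL-13 (background 4.19%). Furin, a convertase that cleaves PDGF and IGF precursors, rose in macrophages with IL-4 (1.06 ± 0.12, adjusted p = 0.000504) and IL-13 (1.12 ± 0.12, 0.00119), and in microglia with IL-4 (1.61 ± 0.31, 0.03), where it was the 1 call among 15 (background 2.22%). Igfbp4, an IGF-binding protein, fell in macrophages with IL-4 (-2.52 ± 0.32, adjusted p = 0.000888) and IL-13 (-1.37 ± 0.31, 0.0379). After IL-4 it was 5.61 ± 0.35 higher in the microglia libraries on the log2 scale. The mean fibroblast and pericyte marker sum in macrophages was 15.8 CPM with PBS, 17.1 with IL-13 and 3.79 with IL-4. The part of such RNA in the fall of Igfbp4 was not tested. Adam17, the main sheddase of EGF receptor ligands, was at 244 ± 18.9 CPM in PBS and 208 ± 28.7 in IL-4 macrophages.

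Lists of pathways known to drive some of these genes are given by their counts, beside 14% of all genes called with IL-4 against PBS in macrophages and 2.22% in microglia. Of 15 hypoxia-response genes tested in macrophages, 3 rose and 1 fell with IL-4 (median 0.40): Ldha (1.09 ± 0.15, 0.00117), Ero1l (1.51 ± 0.27, 0.00507) and Adm (2.48 ± 0.69, 0.0386) rose, and Pfkfb3 (-1.22 ± 0.13, 0.000292) fell. Of 19 immediate early genes, 2 rose, Egr2 (1.99 ± 0.26, 0.00106) and Klf4 (1.55 ± 0.23, 0.00196), and 3 fell, among them Cyr61 (0.00507, from 15 to 33 counts per library with PBS to 0 to 2 with IL-4) and Atf3 (-0.63 ± 0.13, 0.0087). Egr2 and Klf4 were also on the list of IL-4 and IL-13 targets. Of 12 genes of the integrated stress response, a known inducer of Gdf15, 1 rose with IL-4 in macrophages, Asns (0.83 ± 0.23, 0.0396), and 2 in microglia, Shmt2 (1.19 ± 0.18, 0.0136) and Trib3 (2.08 ± 0.40, 0.0308). Also in microglia with IL-4, 1 of 16 hypoxia-response genes rose, Bnip3 (1.14 ± 0.24, 0.0427), and 1 of 19 immediate early genes fell, Fos (-1.36 ± 0.29, 0.0459).

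The genes whose levels were most like each member over the 18 libraries were ranked by Pearson's r of log2(CPM + 1) after the mean of each cell type had been subtracted, among 16535 genes, as a description without a test. The libraries share mice and injections. For Hbegf they were Pecam1 (r = 0.95), Cystm1 (0.94) and Hmgn2 (0.93). For Grn they were Galns (0.97), Ctsd (0.96) and Hexa (0.96), all of which encode lysosomal enzymes. Areg was most like Id2 (0.94), Clec4n (0.92) and the pseudogene Gm6977 (0.90), and Tgfa like Jam2 (0.92), Adamts1 (0.91) and Pmp22 (0.91). Igf1 was most like Steap3, Il11ra1 and Hdac3 (0.88, 0.88 and 0.87), Pdgfa like Scn3a, Capns1 and Hypk (0.83, 0.80 and 0.80), Pdgfb like Fam110b, Wbp2 and Ubash3b (0.90, 0.89 and 0.86), Vegfa like Nav1, Larp1 and Pikfyve (0.86, 0.85 and 0.82), and Gdf15 like Ahnak2, Adi1 and Cd200r4 (0.87, 0.83 and 0.83). Bdnf did not pass the filter and was not ranked. Between members, r was 0.76 for Tgfa and Areg, -0.76 for Igf1 and each of them, and -0.74 for Hbegf and Tgfa.

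In the GENCODE annotation of GRCm38, Igf1 (ENSMUSG00000020053.18) lies on chromosome 10 from 87858265 to 87937042, Pdgfa (ENSMUSG00000025856.15) on chromosome 5 from 138976014 to 138997370, Pdgfb on chromosome 15 from 79995874 to 80014977 and Vegfa (ENSMUSG00000023951.17) on chromosome 17 from 46016993 to 46032369. Tgfa (ENSMUSG00000029999.14) lies on chromosome 6 from 86195223 to 86275719, Areg (ENSMUSG00000029378.5) on chromosome 5 from 91139599 to 91148432, Bdnf (ENSMUSG00000048482.14) on chromosome 2 from 109674700 to 109727007, Grn (ENSMUSG00000034708.11) on chromosome 11 from 102430315 to 102437048 and Gdf15 (ENSMUSG00000038508.7) on chromosome 8 from 70629393 to 70632456. Counts cover all exons of a gene, UTRs included. Besides Pdgfa, the exons of Tgfa, Bdnf and Grn overlap those of a gene on the other strand (Gm43917, Gm45346 and Fam171a2), so that their reads cannot be told apart here.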

How the data were processed

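RNA was amplified by SMART-seq2, without strand or molecular identifiers. The authors mapped reads to GRCm38 with STAR (2.5.3a) and deposited RSEM (1.3.0) expected counts per gene, as whole numbers without normalization. The annotation release is not given in the sources used here. Replicates are separate mice.

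Counts were tested with edgeR (4.0.16, R 4.3.3) by its quasi-likelihood test, after filterByExpr and TMM, on the 9 libraries of a cell type, the 6 of an injection, or all 18 for interactions. P-values were adjusted over all genes by Benjamini-Hochberg, with a threshold of 0.05. SE came from the F statistic. Code was tested on simulated data. Alternatives were DESeq2 (1.42.0), its size factors, other filters (none, or 10 counts in every library), other library sets, a mouse block, and each library left out. Lengths came from GENCODE M21, matched to GRCm38.

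Each mouse gave a microglia and a macrophage library, which pairs them: deviations from group means correlated by 0.0485 to 0.205 across 16535 genes. Members and lists were chosen with earlier results of these data known. All 10 members are named, list genes (up to 4 each) by lowest p, and others were named after their values were seen.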

Additional observations from a re-analysis of the deposited data

Results flagged for a closer look

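The effect of IL-4 differed between microglia and macrophages for 2 of the genes, by edgeR's interaction test. For Hbegf, the response in microglia minus that in macrophages was -5.61 on the log2 scale (SE 1.08, adjusted p = 0.0231), with 1.04 in microglia and 6.61 in macrophages, where all 3 IL-4 libraries were above all 3 PBS libraries. For Tgfa it was 4.72 (SE 0.58, adjusted p = 0.00127), with -0.15 in microglia and -4.89 in macrophages, where all 3 IL-4 libraries were below all 3 PBS libraries. In the same test, where 0.992% of all genes were called, 1 of 8 microglia markers was called higher, with a median of 1.94. Of 8 endothelial markers, 3 were called higher and 1, Pecam1, lower (-3.70, adjusted p = 0.00185). The part of such RNA in the values of Hbegf and Tgfa was not tested. Groups of 3 are too small for the test of single outlying samples.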

How the results depend on the processing

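No member changed direction among called values in any alternative. Of 672 values with a library left out, 632 kept their side of the threshold, 33 lost a call and 7 gained one. Under other settings there were 609, of which 574 kept it, 7 lost and 28 gained. Most of these values belong to results without a call in the main fit, which had no call to lose. For IL-4 against PBS in macrophages (5 calls), a minimum of 10 counts in every library, which drops Tgfa and Areg, gave 3, all 18 libraries in one model 4, DESeq2, no filter and mice 6 and 9 left out together (chosen after seeing the data) 6 each, and leaving out a library 3 to 6. Calls over all genes went from 1900 to 1677, 1053, 2576, 2034, 2486 and 1041 to 1614 in that order. For IL-13 against PBS there (1 call), DESeq2, all 18 libraries and only the 6 compared gave 2, no filter and mice 6 and 9 left out together gave 4, and leaving out a library 0 to 4. Calls over all genes moved too, from 570 to 1112 (DESeq2), 257 (18 libraries), 523 (6 libraries), 760 (no filter), 900 (mice 6 and 9) and 199 to 529 (a library left out). For IL-4 against IL-13 there (1 call), DESeq2 and no filter gave 2, the 10-count minimum and only the 6 libraries 0, and leaving out a library 0 to 1, while calls over all genes went from 34 to 399, 209, 23, 7 and 1 to 23. In microglia, DESeq2 gave 1 call for IL-13 against PBS (404 over all genes, against 57). Between cell types after IL-13 (4 calls), leaving out a library gave 1 to 4 (2132 to 3969 over all genes, against 3710). The interaction with IL-4 (2 calls) gave 1 with the 10-count minimum, 1 to 2 with a library left out, 3 with DESeq2, which added Pdgfa (adjusted p = 0.0124), and 3 with mice 6 and 9 left out together, which added Igf1 (-1.98, adjusted p = 0.0313), and that with IL-13 (0 calls) gave 1 with DESeq2. Calls over all genes went from 164 to 142 (10-count minimum), 52 to 198 (a library left out), 777 (DESeq2) and 278 (mice 6 and 9) for IL-4, and from 4 to 183 (DESeq2) for IL-13.

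With the mouse as a replicate block, the cell types differed in 7 members after PBS, 3 after IL-13 and 5 after IL-4, against 6, 4 and 4 without it (over all genes 5912, 3538 and 2790 calls, against 6014, 3710 and 3174), and the interactions stayed at 2 and 0. Per kb of the longest transcript in place of all exons, Grn was at 973 CPM in PBS microglia and 1752 in PBS macrophages. Depth limits Areg, Bdnf, Vegfa in microglia and Tgfa in IL-4 macrophages, which had few counts. PCR duplicates were not removed by identifiers, so counting error is understated, and 3 mice a group leave calls near the threshold dependent on single mice.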
